A study of Mus musculus with 29 samples.

Results

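Tacrolimus given from the day of stroke was studied at the level of transcripts in 3 stroked wildtype mice (WT-Tacr), which were set against 4 non-stroked wildtype (WT) mice. These 7 samples of the 29 in the series were chosen by their labels alone, by genotype and by treatment with stroke or control. All of them were C57BL/6 mice aged 3 months, without any engineered allele. The treated mice received a photothrombotic stroke, in which light clots the vessels of the exposed area, in the right sensorimotor cortex. A subcutaneous osmotic pump delivered tacrolimus, and the cortex was sampled 21 days after stroke. The label of the treated mice does not spell out the drug, which was taken from the study's text, and the word for acute treatment stands in the titles of mice 1_5 and 2_1 but not of mouse 5m_1. The titles of mice 5m_1 and 1_5 also differ in their last digit from the names of their deposited count tables. No non-stroked mice under tacrolimus were analysed here, so the effects of stroke and of tacrolimus cannot be told apart in this comparison. The study's methods speak of RNA from stroked cortex and from the opposite hemisphere, and its results of naïve mice, so the 4 control samples are called non-stroked here. Each sample is labelled as a separate mouse, and p-values measure the spread between mice, pooled over all 8 groups of the series unless stated.

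Tacrolimus (FK506) binds the immunophilin FKBP12 and the complex blocks calcineurin, the phosphatase that sends NFAT transcription factors into the nucleus of activated T cells. Weeks after a cortical stroke, microglia and incoming macrophages clear debris, astrocytes form a border around the lesion, and fibroblasts deposit collagen in its core. Genes for complement, lysosomal and antigen-presenting proteins and for the filaments of reactive astrocytes follow these events in bulk tissue. In such samples a difference in the number of cells of a type and a difference in RNA per cell cannot be told apart.

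The labels place the samples in 2 cohorts. Mouse 5m_1 and the 4 non-stroked mice were of the Imm2 cohort, and mice 1_5 and 2_1 of the TF cohort. The deposited counts summed to 43403413 reads in mouse 5m_1, 24421591 in mouse 1_5 and 24124783 in mouse 2_1, against 38298061 to 40440384 in the non-stroked mice. Ddx3y, a gene of chromosome Y, stood at 43.2 CPM (counts scaled to a common library size) in mouse 5m_1, at 0 in mice 1_5 and 2_1, and at 49.2 to 52.7 CPM in the non-stroked mice. Cohort, depth and Ddx3y thus separated mice 1_5 and 2_1 from the other 5 samples together. In the TF cohort no non-stroked sample was analysed. A total of 4 untreated stroked WT mice, 2 of each cohort, and 5 stroked mice with delayed tacrolimus, all of the TF cohort, are used for comparison.

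Stroke under tacrolimus was accompanied by higher transcript levels of many inflammatory and glial genes, but the 3 mice carried this response to very different extents. A gene was called when edgeR's quasi-likelihood test, fitted over all 8 groups of the series, placed it below 0.05 after Benjamini-Hochberg adjustment and its log2 fold change lay beyond 1 in either direction. Of 17031 genes tested, 440 were called (2.58%), 389 higher (2.28%) and 51 lower (0.299%), and 4701 had an unadjusted p below 0.05. Without the minimum fold change 1052 genes were higher (6.18%) and 402 lower (2.36%). Among the called genes, all 3 treated mice lay above all 4 non-stroked mice for 238 of the 389 higher genes (such an order held for 10.4% of all genes tested) and below them for 46 of the 51 lower genes (9.2% over all genes tested). The median log2 fold change of all genes tested was 0.01. The same 4 non-stroked mice served untreated stroked WT mice, in which 1152 genes were called higher (6.76%) and 92 lower (0.54%).

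The count of higher genes rested on mouse 2_1. Without it, 20 genes were called higher and 3 lower, whereas 638 and 273 were called without mouse 5m_1 and 465 and 17 without mouse 1_5. Leaving out non-stroked mice gave 191 higher and 20 lower genes without 1Wt, 257 and 37 without 3Wt, 285 and 32 without 4Wt, and 240 and 21 without 5Wt. A fit of only these 7 mice, with its own filter, normalization and spread, called 8 genes higher (0.0504% of 15879 tested) and 13 lower (0.0819%), with 4008 genes at an unadjusted p below 0.05. With the cohort as a covariate 27 genes were higher and 4 lower. Of the 440 genes, 22 kept their call without mouse 2_1 and 27 with the cohort as a covariate, and the calls given below for other genes hold in the fit of all 8 groups. In that fit 2.28% of all genes tested were called higher and 0.299% lower. A short list without a call is what these shares alone would often give.

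Each treated mouse was then described by the number of genes that lay beyond all 4 non-stroked mice and by more than 1 on the log2 scale from their mean. Mouse 2_1 had 1554 genes above and 704 below. Mouse 5m_1 had 333 above and 184 below, and mouse 1_5 had 256 above and 701 below. The median of the mean levels of these 701 genes was 0.507 CPM, and the library of mouse 1_5 was shallower than those of the non-stroked mice. At a mean of at least 1 CPM, 238 genes were below in mouse 1_5, 72 in mouse 5m_1 and 278 in mouse 2_1. Non-stroked mice held against the other 3 gave 55 to 205 genes above and 129 to 236 below, although these were measured against 3 mice in place of 4. Untreated stroked WT mice had 1033 (2m_3) and 943 (2m_5) genes above in the Imm2 cohort and 1615 (5_2) and 1743 (5_3) in the TF cohort, and mice with delayed tacrolimus had 1676 to 2548. The genes below numbered 147 and 160 in the untreated stroked mice of the Imm2 cohort, 621 and 828 in those of the TF cohort and 574 to 1081 with delayed tacrolimus. Exact two-sided permutation tests of the 3 treated against the 4 untreated stroked mice gave p = 0.171 for the genes above and p = 0.8 for the genes below. The smallest p that this design allows is 0.0571.

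**Figure D1:**
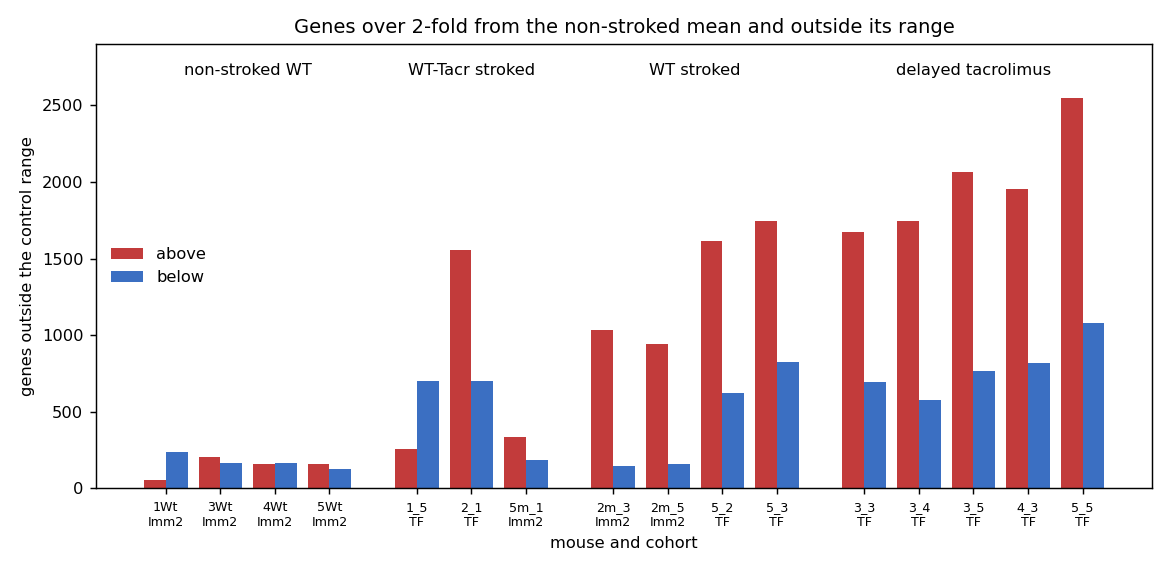
Number of genes (vertical axis) more than 2-fold from the mean of the non-stroked mice and outside their range, for each mouse (horizontal axis, with its cohort), above in red and below in blue; each non-stroked mouse is held against the other 3. Mouse 2_1, with 1554 genes above, stands between the untreated stroked WT mice of the 2 cohorts, whereas mice 5m_1 (333) and 1_5 (256) stand closer to the non-stroked mice.

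A yardstick from other samples showed the same order. The 718 genes called higher after stroke in Rag2-/- mice, which lack mature T and B cells, were chosen by a difference between groups that hold no sample of this comparison. Their median log2 difference from the non-stroked WT mice was 1.75 in mouse 2_1, 0.49 in mouse 5m_1 and 0.13 in mouse 1_5. Among these genes 585, 171 and 51, in this order, were higher by more than 1 on the log2 scale. Untreated stroked WT mice had medians of 1.38 to 1.98, and non-stroked mice held against each other had medians of -0.11 to 0.11. The exact permutation test of treated against untreated stroked mice on this median gave p = 0.171. Within the cohorts, mouse 5m_1 was below both untreated stroked mice of Imm2 (1.38 and 1.41), and mice 1_5 and 2_1 were below both of TF (1.86 and 1.98). The genes above the non-stroked range had the same order within each cohort, and with 1 mouse against 2 and 2 against 2 this order was not tested.

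The genes above the non-stroked range were in part shared between the mice. Mouse 2_1 shared 257 of the 333 genes of mouse 5m_1 and 166 of the 256 genes of mouse 1_5, against 1554 genes of its own. Mice 5m_1 and 1_5 shared 52 genes, and 47 were above in all 3 mice. Below the range, mice 1_5 and 2_1 of the TF cohort shared 326 of 701 and 704 genes, and 42 were below in all 3 mice. Over the 389 genes called higher, the median log2 difference was 2.39 in mouse 2_1, 0.97 in mouse 5m_1 and 0.62 in mouse 1_5. Mouse 2_1 had the highest value for 350 of them, and mouse 1_5 the lowest for 261. The 51 genes called lower were more alike across the mice, with medians of -1.22 in mouse 5m_1, -1.45 in mouse 1_5 and -1.53 in mouse 2_1.

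From the list of disease-associated microglia and phagocytes, 20 of 30 genes rose and none fell, and 13 were above the non-stroked range in all 3 mice. The median log2 difference over this list was 0.84 in mouse 5m_1, 0.17 in mouse 1_5 and 2.62 in mouse 2_1. Lyz2, which encodes the lysozyme of macrophages, stood at 20 CPM in mouse 5m_1, 6.83 in mouse 1_5 and 421 in mouse 2_1, against 2.73, 3.21, 4.16 and 4.12 in the non-stroked mice. All 3 mice were above the non-stroked range, and mouse 2_1 lay among the untreated stroked mice (120.2 to 474). Lyz2 rose with a log2 fold change of 5.39 (SE 0.854, edgeR adjusted p = 0.00106), but without mouse 2_1 the value was 1.92 (edgeR adjusted p = 0.117). Trem2, the lipid receptor of microglia, was at 14.2, 12 and 51.5 CPM in mice 5m_1, 1_5 and 2_1 and at 7.56 to 9.44 in the non-stroked mice (log2 fold change 1.56, SE 0.309, adjusted p = 0.00549 in edgeR), and its value without mouse 2_1 was 0.58 (edgeR adjusted p = 0.212). Clec7a, the receptor dectin-1, was at 1.48, 0.0832 and 25.6 CPM and at 0.136 to 0.212 in the non-stroked mice, so mouse 1_5 was below their lowest value. Spp1, which encodes the secreted protein osteopontin, was at 18.8, 7.03 and 164 CPM against 3.64 to 7.78. For Clec7a and Spp1 the groups overlapped through mouse 1_5.

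Some of these genes were almost silent without stroke, which makes their folds uncertain. Cd5l, a protein secreted by macrophages, was at 1.22, 0.0416 and 42.6 CPM and had 1 read over all 4 non-stroked libraries, a ratio of 1851 with a counting interval of 332 to 73184 (95%, exact, counting error only). This ratio rested on mouse 2_1, without which Cd5l was not called (edgeR adjusted p = 0.171). Mmp12, the macrophage elastase, was at 3.33, 0 and 13.9 CPM with 3 reads over the non-stroked libraries (ratio 266, counting interval 90.6 to 1296). It was not called without mouse 2_1 either (edgeR adjusted p = 0.161). Mmp3, or stromelysin, had no read in the non-stroked libraries, and was at least 56.9-fold higher against a floor of 3 counts per library. Of its 365 reads in treated mice nearly all came from mouse 2_1, since it was at 0.122 CPM in mouse 5m_1, at 0 in mouse 1_5 and at 13.9 in mouse 2_1. In mouse 1_5 Mmp12, Mmp3 and Atp6v0d2, a proton pump subunit of macrophages, all had 0 reads.

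**Figure D2:**
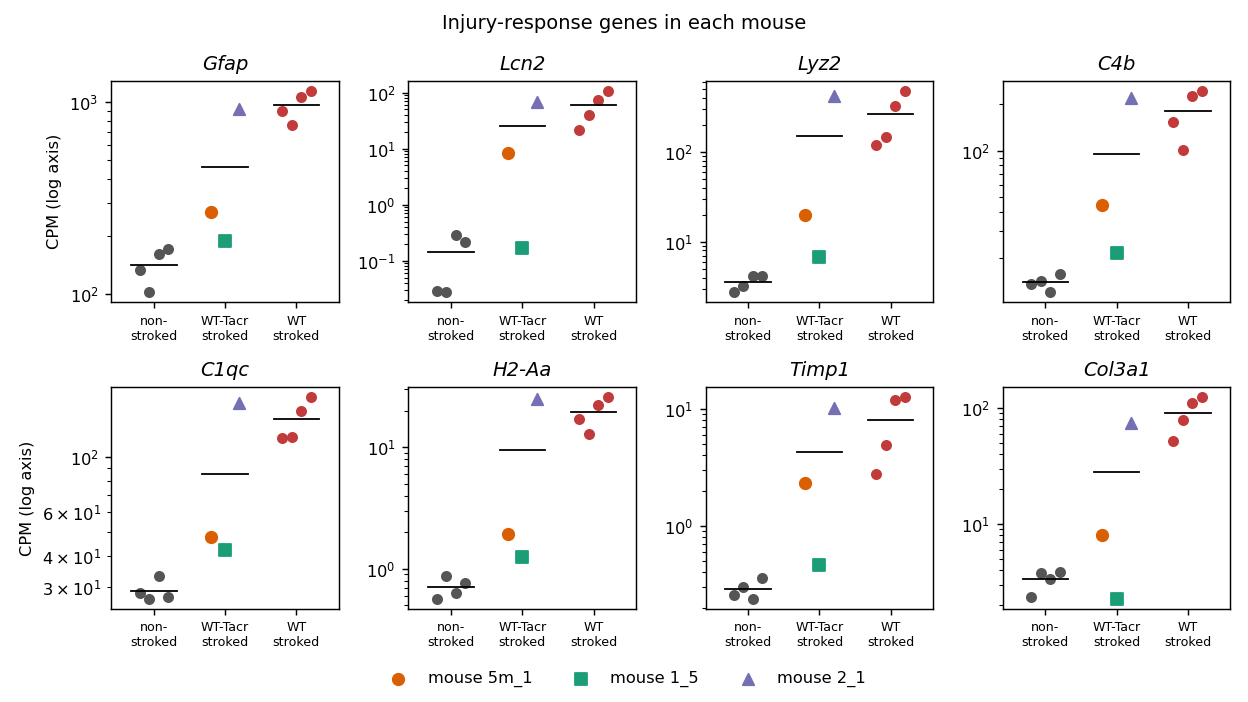
CPM (log axis) of 8 injury genes in non-stroked WT, WT-Tacr stroked and WT stroked mice; each point is a mouse and each line a group mean. In all 8 panels mouse 2_1 lies highest and mouse 1_5 lowest of the treated mice, as for Gfap at 928 and 189 CPM.

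Of 15 homeostatic microglia genes, 2 were called higher, Aif1 and Fcrls, and the summed level of the list was 1452, 1510.5 and 1391 CPM in mice 5m_1, 1_5 and 2_1 against 1324 to 1493 in the non-stroked mice. Aif1, which encodes Iba1, was at 2.92, 4.37 and 10.5 CPM and at 2.05 to 3.30 in the non-stroked mice (log2 fold change 1.19, SE 0.281, adjusted p = 0.0146 in edgeR), with mouse 5m_1 inside their range. Without mouse 2_1 the log2 fold changes of Aif1 and Fcrls were 0.47 and 0.51, and neither passed (adjusted p = 0.367 and 0.348 in edgeR). Tmem119, a surface protein of microglia, was above the range in every treated mouse, at 21.2, 24.2 and 30.9 CPM against 11.5 to 15.6, with an edgeR adjusted p of 0.000258 but a log2 fold change of 0.86 (SE 0.117), under the minimum. Without mouse 2_1 its adjusted p from edgeR was 0.00721. Csf1r, the receptor that microglia need to survive, was at 103, 108 and 169 CPM against 75.6 to 87.7 (log2 fold change 0.63, SE 0.129). Siglech, a lectin of microglia, also passed the adjusted p below the minimum fold change, while P2ry12 and Cx3cr1 did not pass. Neither Csf1r nor Siglech passed without mouse 2_1, at log2 fold changes of 0.35 and 0.22 (edgeR adjusted p = 0.174 and 0.463).

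Of 19 complement genes 11 rose. C4b, a component of the classical pathway, was at 44.7 CPM in mouse 5m_1, 21.6 in mouse 1_5 and 217 in mouse 2_1 and at 12 to 15.9 in the non-stroked mice (log2 fold change 2.76, SE 0.458, adjusted p = 0.00185 in edgeR). C1qc, a chain of the initiator C1q, was at 47.5, 42.1 and 165 CPM against 26.9 to 33.2 (log2 fold change 1.55, SE 0.3, adjusted p = 0.00532 in edgeR). Both genes were above the non-stroked range in all 3 mice, and neither passed without mouse 2_1 (edgeR adjusted p = 0.0957 and 0.19). C3, the central component, was at 3.70, 0.375 and 112 CPM against 0.114 to 1.29, so that the value of mouse 1_5 lay inside the non-stroked range. Of 6 Fc receptor genes 5 rose, with list medians of 1.02, 0.49 and 2.19 in mice 5m_1, 1_5 and 2_1, and Fcgr3, a receptor for IgG, stood at 18.5, 10.6 and 39.5 CPM against 6.15 to 10.6. Toll-like receptors and their adaptors had 6 of 13 genes higher, and each of Tlr13, Cd14 and Tlr7 was above the range in all 3 mice.

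Of 13 CC chemokine genes 9 rose, with a summed level of 8.86, 5.12 and 24.5 CPM in mice 5m_1, 1_5 and 2_1 against 2.42 to 3.62 in the non-stroked mice. Ccl6, which is made by myeloid cells, was at 1.75, 1.62 and 9.73 CPM against 0.605 to 0.928 (log2 fold change 2.44, SE 0.495, adjusted p = 0.00622 in edgeR), and at a log2 fold change of 1.08 without mouse 2_1 (edgeR adjusted p = 0.268). Ccl12, a ligand of Ccr2, had its highest value in mouse 5m_1, at 1.78, 0.125 and 0.773 CPM against 0.053 to 0.245. Ccl12 remained called with each of the 7 mice left out in turn. Of 10 genes in the list of CXC chemokines 4 rose, and of 9 chemokine receptors only Ccr2 was called, at 0.487, 0.416 and 1.70 CPM against 0.163 to 0.285. Of 11 genes of the interleukin 1 and inflammasome list, Il1rn, Casp4 and Il1b were called.

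Antigen presentation genes differed widely between the mice. For MHC class II presentation 5 of 7 genes rose, and the median log2 difference was 3.99 in mouse 2_1, 1.08 in mouse 5m_1 and 0.15 in mouse 1_5. H2-Aa, a chain of the class II molecule, was at 1.95, 1.25 and 25.1 CPM in mice 5m_1, 1_5 and 2_1 and at 0.569 to 0.871 in the non-stroked mice (log2 fold change 3.70, SE 0.741, adjusted p = 0.00577 in edgeR). Without mouse 2_1 its value was 1.19 (edgeR adjusted p = 0.394). All 3 values were above the non-stroked range, and that of mouse 2_1 was close to the highest untreated stroked mouse at 25.8 CPM. Cd74, the invariant chain, was at 7.25, 2.79 and 51.3 CPM against 1.59 to 3, with mouse 1_5 inside the range. Of 13 class I genes 4 rose, among them H2-K1 (24.7, 23.4 and 73.7 CPM against 16.3 to 18.3) and the immunoproteasome subunit Psmb8 (2.09, 2.58 and 9.08 CPM against 1.17 to 1.57). Of 26 interferon-stimulated genes 5 rose, including Bst2, which tethers viruses to membranes, at 1.63, 2.50 and 9.12 CPM against 0.88 to 1.48.

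The reactive astrocyte list had 14 of 25 genes higher, with medians of 0.88, 0.11 and 2.08 in mice 5m_1, 1_5 and 2_1. Gfap, the intermediate filament that marks reactive astrocytes, stood at 267 CPM in mouse 5m_1, 189 in mouse 1_5 and 928 in mouse 2_1, against 134, 102, 162 and 172 in the non-stroked mice. The lowest treated mouse was thus only slightly above the highest non-stroked mouse. Gfap rose with a log2 fold change of 1.69 (SE 0.339, edgeR adjusted p = 0.00577), and without mouse 2_1 the value was 0.67 (edgeR adjusted p = 0.239). Vim, another intermediate filament, was at 36.2, 27.6 and 194 CPM against 19.8 to 25.4, and Timp1, an inhibitor of metalloproteinases, at 2.31, 0.458 and 10.2 CPM against 0.239 to 0.357. Lcn2, or lipocalin 2, and Socs3, a feedback inhibitor of cytokine signalling, belonged to this list too. Lcn2 kept its call with any 1 of the 7 mice left out, although mouse 1_5 lay within the non-stroked range at 0.166 CPM. Socs3 was highest in mouse 5m_1 (12.3, 4.54 and 7.73 CPM against 3.07 to 4.43).

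Genes of astrocyte identity moved little. None of 12 was called by edgeR, and 4 passed the adjusted p below the minimum fold change. The gap junction gene Gjb6 was at 48.3, 59.4 and 64.3 CPM against 30.8 to 38.5 (log2 fold change 0.73, SE 0.132), and Fgfr3, a growth factor receptor, at 114, 151 and 120 CPM against 83.4 to 102. Neither passed with the cohort as a covariate, where the log2 fold changes of Gjb6 and Fgfr3 were 0.47 and 0.24 (edgeR adjusted p = 0.145 and 0.382). Aldh1l1, a folate enzyme of astrocytes, had a log2 fold change of 0.36, and Sox9, a transcription factor of the lineage, one of -0.80 (31.2, 21.3 and 28.5 CPM against 38.8 to 52.7).

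Of 22 collagen and fibroblast scar genes 4 rose. Against the same non-stroked mice 17 of them were called higher in untreated stroked WT mice, and the difference between treated and untreated stroke passed for none. Col3a1, a fibrillar collagen, was at 8.13 CPM in mouse 5m_1, 2.29 in mouse 1_5 and 73.9 in mouse 2_1, against 2.36 to 3.88 in the non-stroked and 52.3 to 123 in the untreated stroked mice (log2 fold change 3.06 between treated and non-stroked mice with SE 0.791, edgeR adjusted p = 0.0218). Without mouse 2_1 the value for Col3a1 was 0.69 (edgeR adjusted p = 0.711). Mouse 1_5 was below every non-stroked mouse for Col3a1. Mgp, an inhibitor of calcification, was above the range in all 3 mice, at 21.8, 12.4 and 86.0 CPM against 5.84 to 10.7. The summed level of the list was 576, 488 and 1327 CPM in mice 5m_1, 1_5 and 2_1 against 469 to 621. None of 13 vascular basement membrane genes and none of 12 proteoglycan and tenascin genes was called in edgeR's test.

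**Figure D3:**
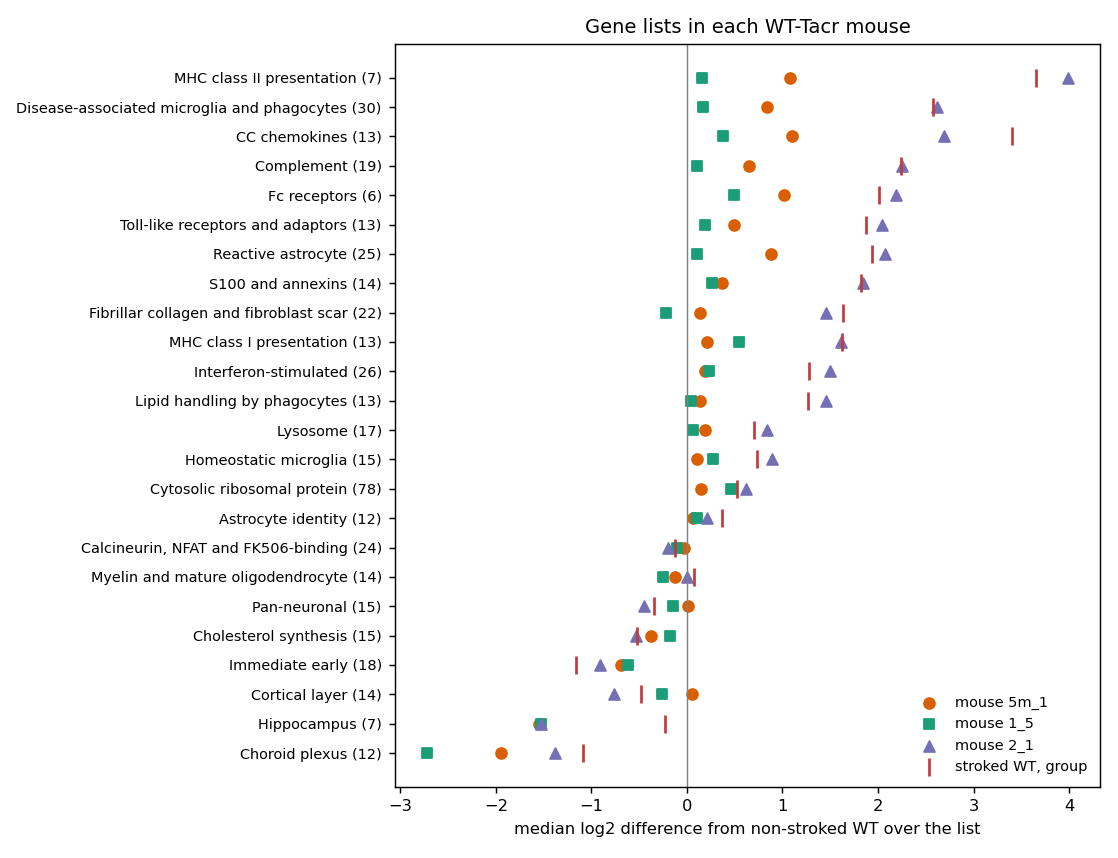
Median log2 difference from the non-stroked WT mice (horizontal axis) over the tested genes of 24 lists (their number in brackets), for each WT-Tacr mouse, with the median log2 fold change of the stroked WT group as a red tick. Mouse 2_1 has the highest median of the inflammatory lists, as for MHC class II presentation (3.99 against 0.15 in mouse 1_5), whereas the hippocampus list lies at -1.55 to -1.53 in all 3 mice.

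Further lists of phagocyte function also held calls. Of 13 genes of lipid handling 5 rose. Plin2, which coats lipid droplets, was at 4.11, 4.83 and 23.9 CPM against 2.73 to 3.97. Apoc4, an apolipoprotein, had no read in the non-stroked mice, was at least 10.5-fold higher by the floor of 3 counts per library and had no read in mouse 1_5. This bound rested on mouse 2_1, without which Apoc4 was not called (edgeR adjusted p = 0.493). Of 12 heme and iron genes 5 rose, including Hmox1, which breaks down heme (13.2, 4.70 and 17.3 CPM against 3.24 to 5.28), and Ftl1, a ferritin chain (133, 147 and 429 CPM against 84.3 to 106). Of 14 S100 and annexin genes 5 rose and of 17 lysosome genes 2. Markers of border-associated macrophages had 3 of 8 genes higher, and F13a1 and Cd163, a coagulation factor chain and the haemoglobin receptor, were nearly level among the treated mice (2.29, 2.91 and 3.24 CPM for F13a1 against 0.925 to 1.57, and 1.53, 1.79 and 2.05 CPM for Cd163 against 0.626 to 1.06). Of 7 monocyte genes 3 rose.

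With each of the 7 mice left out in turn, 17 genes were called in every fit, 15 higher and 2 lower. These were Sgk1, Plin4, Arrdc2, Sult1a1, Nrros, Ch25h, Gm19439, Mt2, Mlph, Tmem52, Gm37069, Itgad, Hcar2, Lcn2 and Ccl12 among the higher genes, and Nkx2-2 and Nr4a3 among the lower ones. Of these, 8 were also called in the fit of only the 7 mice and with the cohort as a covariate: Sgk1, Plin4, Arrdc2, Sult1a1, Nrros, Ch25h, Gm19439 and Nkx2-2. None of the 17 was called between treated and untreated stroked mice in edgeR's fit of all 8 groups, so the set was not shown to be particular to treated mice. The set was defined by these calls and not by even levels, and Lcn2, Mt2, Hcar2 and Ccl12 differed widely between the treated mice, so its levels are given as a description.

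Sgk1 encodes a kinase that responds to serum and glucocorticoids and regulates ion transport. It stood at 139 CPM in mouse 5m_1, 141 in mouse 1_5 and 140.1 in mouse 2_1, against 45.1, 53.9, 71.6 and 55.7 in the non-stroked mice. The treated mice differed by under 3 CPM and lay well above the non-stroked range (log2 fold change 1.31, SE 0.162, adjusted p = 0.000108 in edgeR). Untreated stroked WT mice were at 103, 119.9, 134 and 90.4 CPM, and the treated mice stood at a log2 fold change of 0.32 from them (SE 0.162), which did not pass (edgeR adjusted p = 0.406). Plin4, a coat protein of lipid droplets, was at 37.3, 13.9 and 14.3 CPM, with the highest value in mouse 5m_1, against 1.59, 1.33, 1.88 and 4.01 in the non-stroked mice (log2 fold change 3.31). Untreated stroked WT mice were at 13.6, 14.7, 34.3 and 32.7 CPM of Plin4. Arrdc2, an arrestin-like protein, was at 21.5, 18.1 and 19.9 CPM against 7.97 to 9.74 (log2 fold change 1.14), and Sult1a1, a sulfotransferase, at 13.1, 10.5 and 12.7 CPM against 4.21 to 5.73 (log2 fold change 1.27). Plin4 and Sult1a1 overlap a gene on the opposite strand, and whether counting used strand is not given in the sources used here, so their reads may include those of the other gene.

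Nrros and Ch25h are genes of microglia and macrophages. Nrros, which anchors latent TGF-beta, was at 8.69, 8.07 and 11.8 CPM against 3.51 to 4.06 (log2 fold change 1.35), and Ch25h, which hydroxylates cholesterol, at 1.51, 0.916 and 1.27 CPM against 0.163 to 0.22 (log2 fold change 2.67). The level of Ch25h in mouse 1_5 was thus close to that of the other 2 mice. Gm19439, a gene model without a known role, was at 13.7, 9.82 and 12.8 CPM against 2.39 to 5.11. Mt2, a metallothionein that binds zinc, was at 61.4, 67.6 and 149.5 CPM against 20.4 to 33.1. Other genes passed the adjusted p but missed the minimum fold change. Lfng, which modifies Notch receptors, was at 20.2, 20 and 20.9 CPM against 9.21 to 11.4, with an edgeR adjusted p of 8.24e-06 and a log2 fold change of 0.99, just under the minimum. Fkbp5, a co-chaperone of the glucocorticoid receptor, was at 72.8, 42.7 and 46.3 CPM against 23.1 to 35.0 (log2 fold change 0.98, edgeR adjusted p = 0.0024).

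**Figure D4:**
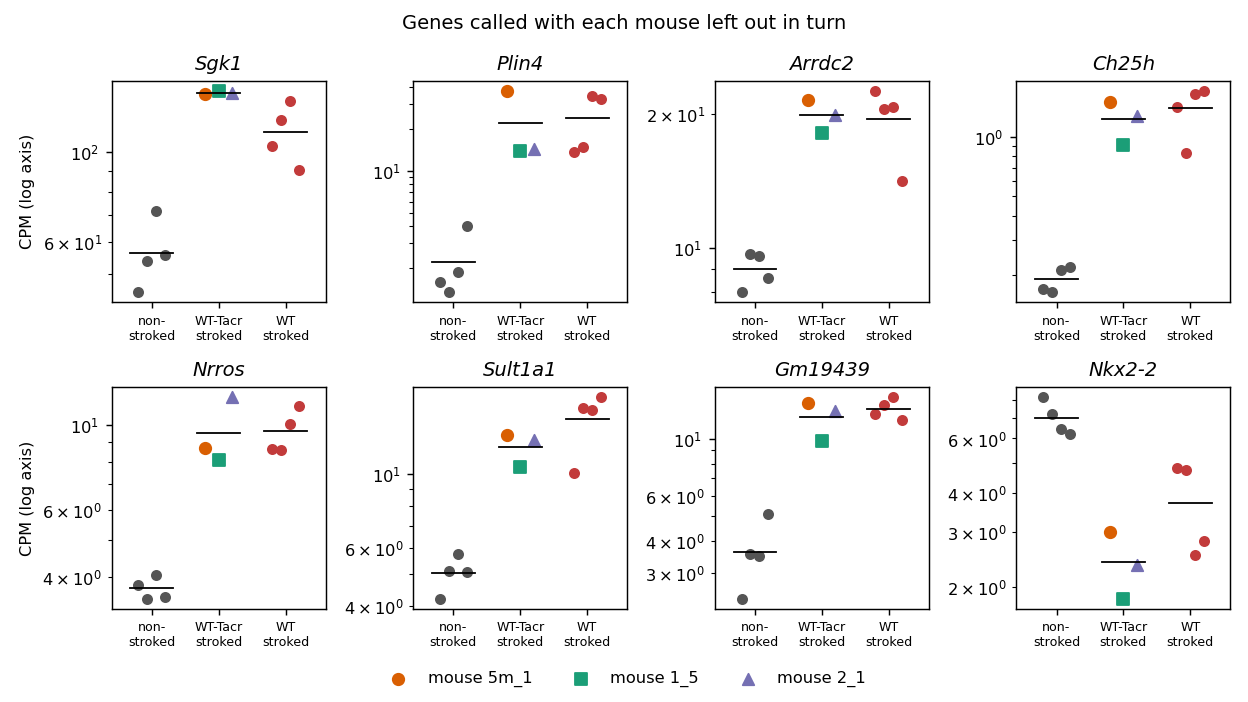
CPM (log axis) of the 8 genes called with each mouse left out in turn, in the fit of only the 7 mice and with the cohort as a covariate; each point is a mouse and each line a group mean. The 3 WT-Tacr mice lie outside the non-stroked range in each panel, and for Sgk1 they coincide at 139 to 141 CPM.

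The promoter of Sgk1 is shown because this gene had the most even level among the called genes described here. The sequence is 1 of 6 Sgk1 windows in the RefSeq table for GRCm38.p6, chr10:21993640-21993939 on the plus strand, and runs from 250 bases before a start site to 50 bases after it. The capitals mark a match to the palindrome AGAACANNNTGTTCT, the textbook binding element of the glucocorticoid receptor, which ends 174 bases before the start site.
Sgk1: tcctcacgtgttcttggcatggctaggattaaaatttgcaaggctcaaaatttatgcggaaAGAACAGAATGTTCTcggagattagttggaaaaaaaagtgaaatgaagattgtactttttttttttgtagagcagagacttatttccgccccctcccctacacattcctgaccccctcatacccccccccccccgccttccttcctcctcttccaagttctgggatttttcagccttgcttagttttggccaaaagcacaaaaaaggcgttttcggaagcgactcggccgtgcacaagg
The palindrome reads the same on both strands and was found in 3 of 32851 windows of this length (0.00913%). Of the 17 genes above, 12 had windows in the table, 17 windows in all, and Sgk1 was the only 1 with the palindrome. The half-site AGAACA on either strand was in 19% of all windows and in 5 of the 17 windows, of which 3 were of Sgk1. The match is a description of the letters, and the counts do not tell which start site was used.

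The genes called lower in treated mice included markers of the hippocampus. From a list of 7 hippocampal genes 4 fell, Dsp, C1ql2, Prox1 and Lct, all known from granule cells of the dentate gyrus, and the list's median log2 difference was -1.55 in mouse 5m_1, -1.53 in mouse 1_5 and -1.53 in mouse 2_1. None of the 7 was called in untreated stroked WT mice, and the difference between treated and untreated stroke passed for none in edgeR's fit of all 8 groups. Dsp, the desmosome protein desmoplakin, stood at 0.219 CPM in mouse 5m_1, 0.125 in mouse 1_5 and 0.348 in mouse 2_1, against 12.2, 4.82, 18.1 and 16.5 in the non-stroked mice. The groups were far apart, and the untreated stroked mice, at 6.29, 23.7, 14.7 and 9.38 CPM, lay about where the non-stroked mice did. Dsp fell by 5.78 on the log2 scale (SE 1.36, edgeR adjusted p = 0.0143). Mice with delayed tacrolimus ranged from 0.693 to 15.4 CPM of Dsp. In both cohorts the treated mice were below the untreated stroked mice for Dsp.

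C1ql2, a secreted synaptic organiser, was at 2.12, 0.458 and 0.579 CPM against 9.11 to 24.6 (log2 fold change -3.82, SE 0.767, adjusted p = 0.0059 in edgeR). Prox1, a transcription factor, was at 17.4, 15.5 and 15.6 CPM against 30.7 to 52.6 (log2 fold change -1.51, SE 0.436, adjusted p = 0.035 in edgeR), and Lct, or lactase, at 2, 1.83 and 1.12 CPM against 5.77 to 17.2 (log2 fold change -2.85, SE 0.887, adjusted p = 0.046 in edgeR). None of Dsp, C1ql2, Prox1 and Lct overlapped between the groups. Without mouse 2_1 their log2 fold changes were -6.13, -3.55, -1.49 and -2.66 and their edgeR adjusted p were 0.142, 0.0989, 0.218 and 0.268. With the cohort as a covariate the values were -5.63, -3.25, -1.30 and -2.58, and again none passed (edgeR adjusted p = 0.149, 0.113, 0.372 and 0.364). The other 3 list members did not pass in the fit of all groups. Fibcd1, a marker of the CA1 field, was at 8.76, 12.9 and 12.8 CPM against 22.1 to 28.5 (log2 fold change -1.18, edgeR adjusted p = 0.0914), without overlap, and was called lower in the fit of only the 7 mice (edgeR adjusted p = 0.0242). Wfs1, also of CA1, was at 111, 99.1 and 109 CPM against 93.1 to 109.6, and Pdzd2 at 161, 150.1 and 115 CPM against 126 to 144. The summed level of the list, in which Wfs1 and Pdzd2 weigh most, was 303, 280.0 and 255 CPM against 292 to 386. How much hippocampus each piece of tissue held was not tested.

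Among other genes called lower without overlap, Cabp7, Shisa6 and Gm2115 had like levels in the 3 mice. Cabp7, a calcium sensor, was at 17.9, 16.6 and 15.9 CPM against 41.1 to 56.7 (log2 fold change -1.57, SE 0.408, adjusted p = 0.0229 in edgeR), and Shisa6, an AMPA receptor partner named after its values were seen, at 18.9, 18.7 and 18.4 CPM against 32.8 to 60.9 (log2 fold change -1.50, edgeR adjusted p = 0.0316). Gm2115 was at 14.7, 12.7 and 16.6 CPM against 33.3 to 51.3. Cabp7 and Gm2115, like Dsp, overlap a gene on the opposite strand. Lhx9, a transcription factor, was at 0.438, 0.0832 and 0.232 CPM against 2.33 to 4.76 (log2 fold change -3.61), and Ntf3, or neurotrophin 3, at 0.389, 0.375 and 0.232 CPM against 0.979 to 1.88 (log2 fold change -2.15). The serotonin receptor gene Htr4 and Vwa3b were also among the 10 largest decreases, with log2 fold changes of -1.81 and -1.73. Of the 51 lower genes, 12 were called lower in the fit of only the 7 mice too, among them Dsp, C1ql2, Prox1, Lct, Cabp7, Gm2115, Shisa6, Lhx9 and Htr4, and 3 with the cohort as a covariate.

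**Figure D5:**
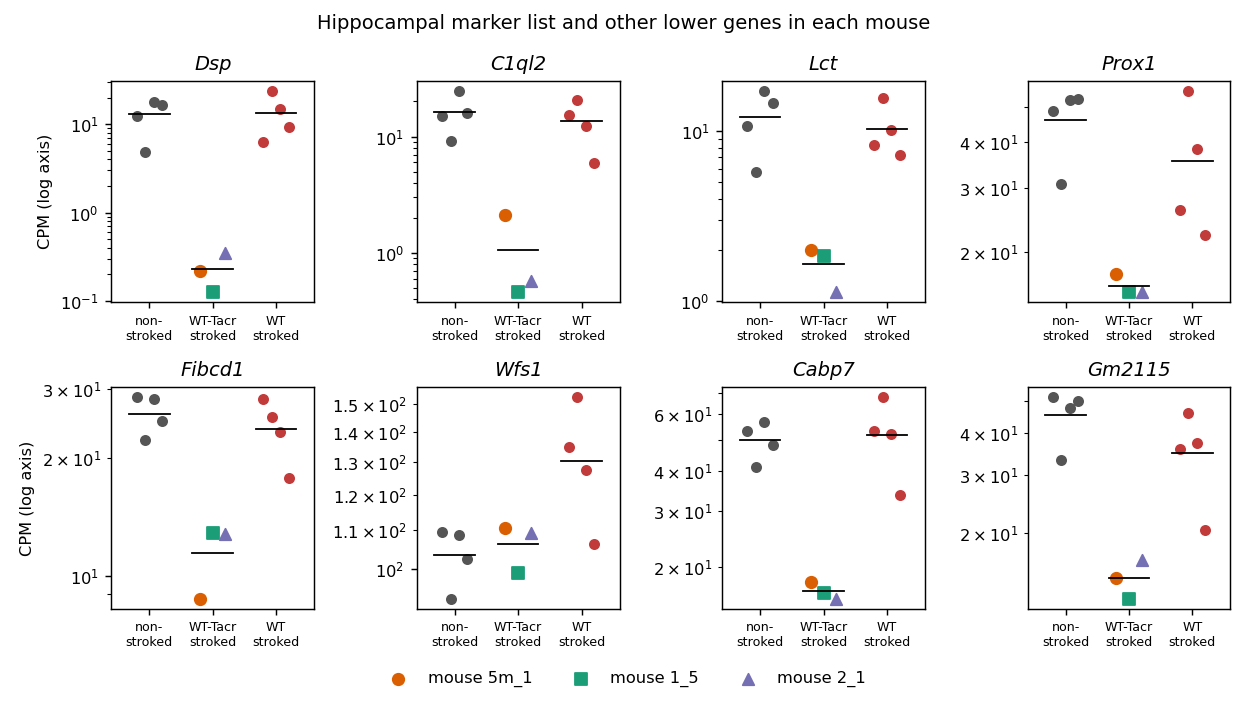
CPM (log axis) of 6 genes of the hippocampal list and of Cabp7 and Gm2115 in non-stroked WT, WT-Tacr stroked and WT stroked mice; each point is a mouse and each line a group mean. For Dsp the WT-Tacr mice (0.125 to 0.348 CPM) lie below all mice of the other groups shown, whereas for Wfs1 the groups overlap.

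Nkx2-2, a transcription factor of the oligodendrocyte lineage, was lower in every fit that left out 1 of the 7 mice. It was at 2.99, 1.83 and 2.36 CPM against 8.14, 7.21, 6.44 and 6.18 in the non-stroked mice (log2 fold change -1.53, SE 0.228, adjusted p = 0.00055 in edgeR). Untreated stroked WT mice were at 4.82 and 4.75 CPM in the Imm2 cohort and at 2.52 and 2.81 CPM in the TF cohort, so its level moved with the cohort as well. Sox10, of the same lineage, was at 47.3, 34.2 and 40.5 CPM against 67.6 to 82.9 (log2 fold change -0.85, SE 0.171, adjusted p = 0.00619 in edgeR), under the minimum fold change. No gene of the 14 myelin genes or of the 8 oligodendrocyte precursor genes was called in edgeR's test, and Sox10 alone passed the adjusted p.

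Among the neuronal lists, only those of axon regeneration and immediate early genes held calls. Over all genes tested 2.28% were called higher and 0.299% lower. In the list of axon regeneration genes Atf3, a stress-induced transcription factor, was the only 1 of 9 called, at 0.487, 0.999 and 7.07 CPM against 0.245 to 0.907. None of 15 pan-neuronal genes was called or passed the adjusted p in edgeR, and their summed level was 16746 CPM in mouse 5m_1, 14849 in mouse 1_5 and 11044 in mouse 2_1 against 15668 to 17487 in the non-stroked and 10698 to 16064 in the untreated stroked mice. The summed level of 14 cortical layer genes was 1384, 1154 and 859.8 CPM against 1294 to 1442. Mouse 2_1 was thus lowest in both lists, and mouse 5m_1 lay inside the non-stroked range of both. Rbfox3, which encodes NeuN, was at 494, 356 and 274 CPM against 439 to 569 (log2 fold change -0.39, SE 0.18, adjusted p = 0.156 in edgeR). Of 18 immediate early genes 2 fell, Nr4a3 and Egr1, and 11 were called lower in untreated stroked WT mice. The difference between treated and untreated stroke passed for none of the 18. Nr4a3, a nuclear receptor induced by activity, was at 18.8, 16.7 and 27.5 CPM against 31.7 to 90.8 (log2 fold change -1.52, SE 0.328, adjusted p from edgeR = 0.00858). Egr1, a zinc finger factor, was at 461, 367 and 305 CPM against 599.7 to 1004 (log2 fold change -1.07, SE 0.232, adjusted p = 0.00902 in edgeR).

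For vessels, none of 10 VEGF ligands and receptors, 15 angiopoietin, Notch and sprouting genes or 11 pericyte and smooth muscle genes was called by edgeR. Of all genes tested 2.58% were called, so lists this short would often hold none. Summed over the VEGF list, the level was 225, 247 and 237 CPM in mice 5m_1, 1_5 and 2_1, below the non-stroked range of 299 to 329.6 CPM, and 233 to 262 CPM in untreated stroked mice. Vegfa, the main growth factor of vessels, was at 58.7, 74.6 and 59.3 CPM against 76.3 to 90.7 (log2 fold change -0.37, SE 0.0984, adjusted p = 0.0236 in edgeR), and its receptor Flt1 at 41.9, 63.1 and 48.5 CPM against 66.7 to 86.2 (log2 fold change -0.57, edgeR adjusted p = 0.0833). Lef1, a Wnt effector of barrier endothelium, was the only called gene of the 13 in its list, at 5.18, 3.45 and 4.52 CPM against 7.53 to 13 (log2 fold change -1.11, SE 0.228, adjusted p = 0.00661 in edgeR). The lipid transporter Mfsd2a was even among the treated mice, at 23.9, 23.9 and 21.0 CPM against 11 to 14.6 (log2 fold change 0.88, SE 0.131, adjusted p = 0.00055 in edgeR), as was Slc2a1, the glucose transporter of the barrier, at 105, 112 and 109 CPM against 67.7 to 76.1 (log2 fold change 0.59). Pecam1, which encodes CD31, was at 13.5, 21.0 and 16.9 CPM against 16.2 to 20.4. Among the 14 TGF-beta genes 1 was called in each direction, and Tgfb2 fell (9.88, 8.24 and 11.3 CPM against 13.5 to 24.1).

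Small shifts ran through the lists for cholesterol and for ribosomes. None of 15 genes of cholesterol synthesis met the minimum fold change, but 8 had lower levels at an edgeR adjusted p below 0.05 (2.36% of all genes tested, as above), among them with log2 fold changes of -0.40 (Dhcr7), -0.49 (Cyp51), -0.37 (Sc5d), -0.45 (Hmgcs1), -0.39 (Sqle) and -0.34 (Insig1). The summed level was 1049, 1160.0 and 841 CPM against 1238 to 1301, below the non-stroked range in all 3 mice. Without mouse 2_1 none of the 6 named genes passed (edgeR adjusted p of 0.0864 to 0.327), nor with the cohort as a covariate (0.119 to 0.276), with folds in the same direction. Of 78 cytosolic ribosomal protein genes 3 were called higher and 35 passed the adjusted p with higher levels (6.18% of all genes tested). Their median log2 difference was 0.14 in mouse 5m_1, 0.46 in mouse 1_5 and 0.62 in mouse 2_1, and mice 1_5 and 2_1 also shared the cohort and the depth. Rps14 was at 76.2 CPM in mouse 5m_1 and at 159 and 174 in mice 1_5 and 2_1, against 50.7 to 66.2, and in untreated stroked mice at 95.9 and 82.3 CPM in the Imm2 cohort and 166 and 167 in the TF cohort.

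Several of the genes furthest above the range in mouse 1_5 differed by cohort. Atp5e, a subunit of ATP synthase, was at 20.1 CPM in mouse 5m_1 and at 59.5 and 59.1 in mice 1_5 and 2_1, against 14.8 to 19.4 in the non-stroked mice. In untreated stroked mice it was at 23 and 19.0 CPM in the Imm2 cohort and at 52.2 and 54.8 in the TF cohort, and with delayed tacrolimus at 52.5 to 55.5. Rpl22l1, a ribosomal protein paralog, stood at 7.62, 30.7 and 33.7 CPM in mice 5m_1, 1_5 and 2_1 and at 27.5 to 34.4 CPM with delayed tacrolimus, and Ndufc1, of respiratory complex I, at 9.71, 28.6 and 29.6 CPM. Every TF mouse was above every Imm2 mouse of these WT groups for Atp5e, and with the cohort as a covariate the log2 fold changes of Atp5e, Rpl22l1 and Ndufc1 between treated and non-stroked mice went from 1.39, 1.81 and 1.28 to 0.28, 0.24 and 0.22, where none passed (edgeR adjusted p of 0.637 to 0.725). Among the genes furthest below the range in mice 1_5 and 2_1 were Ddx3y, Eif2s3y, Kdm5d and Uty, all on chromosome Y. In mouse 5m_1 the genes highest above the range were Lcn2, Mmp12, Cd5l, Plin4 and Steap4, the last at 3.72, 0.0832 and 20.7 CPM against 0.171 to 0.577.

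The genes of FKBP12 and of calcineurin subunits did not pass the test. Fkbp1a, which encodes FKBP12, was at 496, 365 and 378 CPM against 441 to 548, and in untreated stroked mice at 560.2 and 544 in the Imm2 cohort and at 353 and 350.2 in the TF cohort. The calcineurin gene Ppp3ca was at 1374, 1371 and 1288 CPM against 1319 to 1639, Ppp3cb at 262, 322 and 278 CPM against 257 to 289, and Ppp3r1 at 639, 842 and 698 CPM against 636 to 731. None of these was called, and edgeR's adjusted p ran from 0.178 to 0.736. Rcan1, a calcineurin regulator that NFAT induces, was at 58.1, 58.0 and 54.9 CPM against 47.3 to 53.2 (log2 fold change 0.19, SE 0.0849, adjusted p = 0.158 in edgeR). Of the 24 genes of calcineurin, NFAT and FK506-binding proteins none was called, and Fkbp5, another FK506-binding protein, alone passed the adjusted p. Fkbp5 was called without mouse 2_1 (log2 fold change 1.06, adjusted p = 0.00794 in edgeR). The levels of calcineurin transcripts say nothing about its activity.

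Of 19 genes of the T cell receptor and co-stimulation 16 passed the filter on low counts, and edgeR called none of them higher or lower in treated mice. Cd3e, a chain of the receptor complex with few reads in every library, was at 0.195, 0.0416 and 0.193 CPM against 0.0265 to 0.11 in the non-stroked and 0.139 to 0.707 in the untreated stroked mice (log2 fold change 1.39 between treated and non-stroked mice with SE 0.748, edgeR adjusted p = 0.233). Its difference from untreated stroked mice was -1.45 (SE 0.603, edgeR adjusted p = 0.335). The summed level of the 16 genes was 31.6, 21.0 and 44.2 CPM in mice 5m_1, 1_5 and 2_1 against 15.9 to 23.3 in the non-stroked and 22.1 to 34.3 in the untreated stroked mice, so that mouse 2_1 was above all of these. In untreated stroked WT mice 9 of the 16 genes were called higher, against the same non-stroked mice, and the difference between the groups passed for none of them. Of 12 cytokine and receptor genes that NFAT induces, 2 passed the filter, Tnf and Il2ra, and neither was called. None of 6 B cell genes was called. Of 6 genes of NK cells and cytotoxic granules 2 rose, the chemokine gene Ccl5 (0.316, 0.125 and 1.85 CPM against 0.0275 to 0.109) and the receptor gene Klrd1, which had 9 reads over the treated and none in the non-stroked mice (at least 1.25-fold higher by the floor of 3 counts per library).

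Markers of neighbouring tissue differed among the samples and belong beside the results above. The choroid plexus list had no call among 12 genes in edgeR, and its transport protein Ttr was at 1.24, 1.37 and 9.54 CPM in the treated mice and at 1.77, 0.871, 729.5 and 391 in the non-stroked mice. The midbrain genes Slc18a2 and Slc6a4, which carry monoamines, were called lower with 1 non-stroked mouse, 3Wt, at 9.06 and 13.7 CPM. The other 3 non-stroked mice were at 0.292 to 0.495 CPM for Slc18a2 and at 0 to 0.0825 for Slc6a4. Without 3Wt neither gene passed, with log2 fold changes of -1.04 for Slc18a2 and 0.89 for Slc6a4. The summed level of 8 striatal genes was 657 CPM in mouse 5m_1, 371 in mouse 1_5 and 1286 in mouse 2_1 against 260.1 to 494, with none called. The summed level of 9 meningeal genes was 751, 648 and 1039 CPM against 463 to 689.7. Mouse 2_1 was thus highest in striatal and meningeal markers, as in injury genes, and their part in the results was not tested.

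Finally, treated were compared directly with untreated stroked mice. By edgeR's test 0 of 17031 genes were called (0%), with 2168 genes at an unadjusted p below 0.05 and a smallest adjusted p of 0.311. DESeq2 called 2 genes, C1ql2 (log2 fold change -3.67) and Dsp (-5.88), and limma 0. A fit of only the 3 WT groups in edgeR called 3 genes, Cabp7 (-1.62), Dsp (-5.85) and Tnxb (-1.29), the last of them an extracellular matrix gene. Within the TF cohort, at 2 mice against 2, edgeR called 0 of 15984 genes (1797 at an unadjusted p below 0.05), and within the Imm2 cohort it called 0 of 17530 genes (1251 at an unadjusted p below 0.05), where mouse 5m_1 stood alone against 2 mice and was assumed to vary like the other groups of that cohort. Without mouse 2_1 the count rose to 689, with 23 genes higher and 666 lower in the treated mice. In that fit Gfap was lower by a log2 fold change of -2.08 (SE 0.274, edgeR adjusted p = 0.000129), C1qc by -1.64 (SE 0.216), Lyz2 by -4.27 (SE 0.609) and Col3a1 by -4.05 (SE 0.799). With all 3 mice the difference for Gfap was -1.07 (SE 0.348, edgeR adjusted p = 0.311). The number of genes called between treated and untreated stroke thus depended on mouse 2_1.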

How the data were processed

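PolyA-selected RNA was sequenced from stranded libraries. The authors deposited unnormalized gene counts, 1 table per mouse, for 25746 Ensembl genes. Reads were counted at a sequencing core with an aligner, build and strand setting not given in the sources used here. GENCODE M21 (GRCm38) supplied symbols and coordinates for 25712 of the IDs.

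Counts were tested in R 4.3.3 with edgeR 4.0.16 (filterByExpr, TMM normalization, quasi-likelihood fit of all 8 groups, Benjamini-Hochberg adjustment over 17031 genes). SE was taken as the size of the log2 fold change divided by the square root of F. CPM used TMM-scaled library sizes, and log2 differences of single mice a prior count of 2. Single values were compared with exact permutation tests (scipy 1.17.1). Alternatives were RLE size factors, other filters and fits, DESeq2 1.42.0, limma 3.58.1 with sample quality weights, and leaving out each mouse; fits within a cohort of treated against untreated stroke were added after the data were seen. Intervals cover counting error only.

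Genes are named when they encode a stained protein or a drug target, define a cell type, lead a list by p (up to 3 called genes, or else 1), are among the 10 largest changes without overlap at a mean of at least 1 CPM or the 5 smallest p in each direction of the fit of 7 mice, or have the 5 widest ranges among treated mice. Others were chosen after their values were seen. The members and lists were chosen with earlier results of these data known. On simulated counts of 16780 genes for this comparison, 22 of 50 genes changed by a fold of 2 were called, with 3 false calls among unchanged genes. The calls were 49 of 50 at a fold of 4, 50 of 50 at 8 and 49 of 50 at 16. A fold of 2 lies on the threshold of a call, so its count reflects the threshold too. All 3 treated mice were given the same change, without a cohort effect and only in genes above 1 CPM. The simulated counts thus do not speak for a change carried by 1 mouse or by the cohort. Sequences are from RefSeq. Results for a few genes are not reported here.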

Additional observations from a re-analysis of the deposited data

Results flagged for a closer look

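Of 352 groups of 4 mice examined, 22 had a highest or lowest mouse that stood apart from the other 3 by Dixon's criterion, which chance meets in about 1 of 20 groups. Groups of 3, as the treated mice are, were not examined. Non-stroked mouse 3Wt was highest for Slc6a4 (13.7 CPM), Slc18a2 (9.06), Slc17a6 (54.2), Nefh (121), Lamb2 (32.5) and Pax5 (3.59), and lowest for Mbp (1648). Non-stroked mouse 4Wt was highest for Cxcl1 (0.106 CPM), Tgm1 (0.0795), Apoc2 (0.0265), Cd5l (0.0265) and Cd3g (0.0265), and lowest for Tnf (0) and Plac8 (0). Non-stroked mouse 5Wt was highest for Cd8a (0.055 CPM), and mouse 1Wt was highest for F10 (0.0285) and lowest for Anxa1 (0.484). Among untreated stroked mice, 2m_3 was lowest for Mmp12 (7.37 CPM) and Aldh1l1 (62.7), 2m_5 highest for Igkc (4.39), 5_2 lowest for Hbb-bs (1.35) and 5_3 highest for Slc6a4 (0.397). Values under 0.2 CPM rest on a few reads.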

How the results depend on the processing

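The counts of genes against non-stroked mice moved with most settings. Higher and lower genes numbered 389 and 51 as reported and 379 and 51 with RLE size factors, 358 and 40 without a filter and 329 and 32 at a mean of at least 1 CPM. They were 1052 and 402 without a minimum fold change, 8 and 13 when only the 2 groups were fitted, 16 and 11 with the 3 WT groups, 27 and 4 with the cohort as a covariate, and, last, 35 and 0 in the Imm2 cohort, where mouse 5m_1 is the lone treated mouse and is assumed to vary like the others. DESeq2 gave 454 and 89, and limma with quality weights 105 and 31 (weights of 0.369 for 5m_1, 0.869 for 1_5 and 0.395 for 2_1). Leaving out 1 mouse gave 20 to 638 higher and 3 to 273 lower genes, and of the 440 called genes 22 were kept without mouse 2_1. Treated against untreated stroke gave 0 genes, 3 with the 3 WT groups, 2 with DESeq2 and 0 in 9 further fits. It gave 0 to 689 when 1 treated or non-stroked mouse was left out, and no untreated stroked mouse was left out.

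Genes beyond the non-stroked range by more than 2 on the log2 scale were 60 above and 24 below in mouse 5m_1, 5 and 175 in mouse 1_5 and 491 and 180 in mouse 2_1. At a mean of at least 1 CPM they were 165 and 72, 124 and 238, and 987 and 278. Changes of sign were looked for only among the examined genes called in the fit of all 8 groups. Of these, Atf3 in the Imm2 cohort (-0.19), Prn there (-0.018) and Slc6a4 without 3Wt (0.89) changed sign. Over the mice left out, Slc6a4 ran from -6.30 to 0.89. Of 7933 other values of 609 single-gene and list results, 7061 kept their side of the threshold or, for lists, stayed near the reported value. For genes that were not called this count does not cover direction. The cause was not tested beyond what each fit leaves out. No paired analysis was possible because the numbers of treated and non-stroked mice do not mark pairs. Genes under about 0.1 CPM rest on a few reads. In simulated data 2-fold changes, which lie on the threshold of a call, were often missed.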
